A study of Mus musculus with 2 samples.

Results

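The genes described here are 10 imprinted genes tied to growth, namely Igf2, Igf2r, H19, Grb10, Plagl1, Peg3, Dlk1, Mest, Snrpn and Snurf. They were taken by gene symbol from the deposited expression tables, where each symbol has 1 row, and they are 10 of 55367 distinct symbols. The samples were LPC-HRas cells, labelled as a mouse hepatocellular carcinoma cell line from liver. Both groups were infected with a lentivirus carrying a short hairpin, shRFP in the control group and shETV4, which targets the ETS transcription factor Etv4, in the other. Total RNA of each group was sequenced as 1 library, so there were 2 libraries in all and no labelled replicate; the names of the value columns end in _2, whose meaning the sources used here do not give. The sources used here do not give the time after infection, the hairpin sequences or whether the cells were a clone. The shRFP library is called the control below and the shETV4 library the knockdown.

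An imprinted gene is expressed mainly from 1 parental copy, because the other copy is silenced by DNA methylation laid down in the germ line or by a non-coding RNA. Many such genes act on fetal growth, with paternally expressed genes such as Igf2 often promoting it and maternally expressed genes such as Igf2r, H19 and Grb10 often restraining it. Several of them are abundant in fetal liver, are shut down after birth and reappear in liver tumours. Levels in these tables are sums over both parental copies, so nothing can be said here of which copy was read.

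Levels are TPM, the length-corrected share of a transcript in its library's total. A difference is log2(TPM + 1) in the shETV4 library minus log2(TPM + 1) in the shRFP library, a scale that understates the difference of low genes. A gene counted as measured when either library reached 1 TPM, and as called when its difference was 1 or more in size, which is 2-fold on that scale. With 1 library a group there is no test, no replicate error and no p-value. Sequencing depth is unknown from TPM, so no counting error can be given either, and every value describes these 2 libraries only.

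The targeted gene, Etv4, was at 73.2 TPM in the control and 16.2 TPM in the knockdown library, which is the direction its label gives. Of 8 hepatocyte markers, 0 were measured in either library, with Alb listed at 0 in both and Afp, the fetal albumin-like protein, at 0.37 and 0.62 TPM, so the hepatocyte part of the label was not seen in the RNA. Of 9 progenitor and biliary markers 5 were measured, among them Spp1 at 423 and 476 TPM and Sox9 at 28.04 and 45.4 TPM, while Epcam was at 0.16 and 0.23 TPM. The surface marker Cd24a was the 1 called gene of that list, lower at 132 and 55.5 TPM (-1.23), and Krt18 was at 49.1 and 30.9 TPM (-0.65). Fibroblast markers were also present: 6 of 8 were measured, all 6 with differences above 0, with Col3a1 the highest at 368 and 538 TPM, and their summed level was 653 TPM in the control and 879 TPM in the knockdown library. Leukocyte markers summed to 1.07 and 2.12 TPM, nearly all of it Cd68 at 1.01 and 1.98 TPM, with 3 of 6 listed at 0 in both libraries. Endothelial markers summed to 13.9 and 19.4 TPM, nearly all of it Egfl7 at 13.5 and 18.8 TPM. Cdh5 and Tek were listed at 0 in both libraries. The part of these markers in the values below was not tested.

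All 10 imprinted genes were expressed with shRFP, from 12.3 TPM for Snrpn to 236 TPM for H19, and 8 of them were at 10 TPM or more in both libraries. None of the 10 was called higher in the shETV4 library, against 3.36% of the 12951 measured genes. The 1 gene called lower, Snurf, stands against 7.06% of measured genes, so neither count is far from the share of the whole table. At a smaller 1.5-fold threshold, H19 and Dlk1 were higher (2 of 10, background 8.59%) and Peg3, Mest, Snrpn and Snurf were lower (4 of 10, background 20%). Snrpn and Snurf are counted apart here although they share exons. The remaining genes, Igf2, Igf2r, Grb10 and Plagl1, lay within 1.5-fold. The median difference of the 10 genes was -0.29, beside -0.10 for all measured genes, and that of the 9 without Snurf was -0.14.

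**Figure D1:**
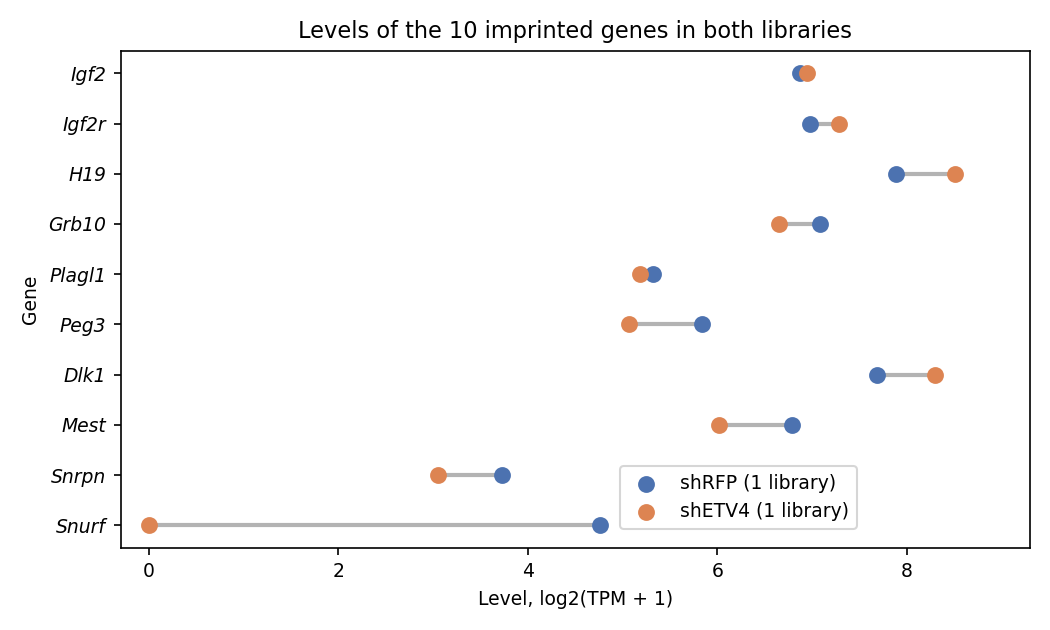
Level of each imprinted gene as log2(TPM + 1), a log scale, with 1 point for the shRFP library and 1 for the shETV4 library and a grey line joining them. H19 and Dlk1 are the highest genes in both libraries and lie further right with shETV4, while Peg3, Mest and Snrpn lie further left and Snurf is listed at 0.

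The largest of these differences, that of Snurf, belongs to a short record inside another gene, and its sequence context is shown first. Snrpn encodes SmN, a protein of the Sm ring that packages spliceosomal RNAs, and Snurf is an upstream reading frame carried by the same transcript. In GENCODE M21 on GRCm38, Snrpn (ENSMUSG00000102252) spans positions 59982495 to 60140219 of chromosome 7 on the minus strand, and Snurf (ENSMUSG00000102627) lies inside it from 59995449 to 60005049. The Snurf record is a single transcript of 216 bases, and exons of Snrpn or of the overlapping model Gm38393 cover 100% of it. Of its 167 stretches of 50 bases, all 167 occur in Snrpn transcripts as well. RefSeq (GRCm38.p6) gives Snurf 1 promoter window and Snrpn 4, of which 1 is the same as that of Snurf, chr7:60005150-60005449 on the minus strand, from 250 bases before to 50 bases after the start. It is printed here because it is the window that both symbols share, with its 7 CpG dinucleotides in capitals, the sites at which imprinted promoters can be methylated.
Snrpn and Snurf promoter: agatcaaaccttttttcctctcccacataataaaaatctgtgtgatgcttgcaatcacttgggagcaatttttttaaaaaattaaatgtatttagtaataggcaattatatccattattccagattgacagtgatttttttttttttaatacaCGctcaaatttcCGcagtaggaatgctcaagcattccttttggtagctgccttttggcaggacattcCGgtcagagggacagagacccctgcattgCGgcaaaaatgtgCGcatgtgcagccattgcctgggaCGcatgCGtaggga
The 300-base windows of all RefSeq promoters have a median of 7 CpG as well. Methylation was not measured in this series.

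Snurf was at 26.0 TPM in the control and is listed at 0 with shETV4. Snrpn was at 12.3 TPM in the control and 7.31 TPM in the knockdown library, 1.68-fold lower, a difference of -0.68. Read together, as their shared exons require, the records summed to 38.3 and 7.31 TPM, 5.24-fold lower with shETV4 and a difference of -2.24. That sum rests on Snurf, which made up 68.0% of it with shRFP, and a sum of TPM over records of unequal length is not a transcript count. Gm38393, the third model over these exons, was at 0.34 and 0.02 TPM.

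A record that is present in 1 library and listed at 0 in the other is rare but not particular to Snurf. Of 5888 genes at 20 TPM or more with shRFP, 11 are listed at 0 with shETV4, and 10 of these 11 have transcripts of 300 bases or less (median 152 bases). Snurf is the 1 protein-coding gene among the 11. In the other direction 24 genes at 20 TPM or more with shETV4 are listed at 0 with shRFP, and all 24 are 300 bases or shorter. The sources used here do not say how reads of overlapping records were divided, and whether the zero of Snurf reflects that division or the RNA cannot be told apart in these files. Of the 2 records, only Snrpn has sequence of its own in these comparisons, with 7.93% of its stretches of 50 bases found in Snurf and 0% in Snrpb, the gene of the closely related Sm ring protein SmB.

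The growth factor gene Igf2 was nearly level. Igf2 (ENSMUSG00000048583, chromosome 7, 142650766 to 142666816, minus strand) encodes insulin-like growth factor 2, a fetal growth factor, and was at 116 TPM in the control and 123 TPM in the knockdown library. Its difference of 0.08 was above that of 65.5% of measured genes, but turned to -0.01 once the GC trend described further on was subtracted. Other models cover 64.5% of its exonic bases, chiefly Gm49394, which is listed at 0 in both libraries, and the antisense Igf2os at 0.88 and 1.27 TPM.

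H19 was higher in the shETV4 library. H19 (ENSMUSG00000000031, chromosome 7, 142575529 to 142578143, minus strand) is a maternally expressed long non-coding RNA downstream of Igf2 that competes with it for the same enhancers. It was at 236 TPM in the control and 364 TPM in the knockdown library, 1.54-fold higher, a difference of 0.62 that was above that of 92.1% of measured genes. The ratio of H19 to Igf2 was 2.03 with shRFP and 2.96 with shETV4, so the neighbours did not keep the same proportion in the 2 libraries.

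H19 is also the precursor of miR-675, whose hairpin lies inside an exon of H19 at positions 142577064 to 142577147. Its mature arms from RefSeq (GRCm38.p6) are shown because the level of their precursor differed, with the seed, bases 2 to 8, in capitals.
mmu-miR-675-5p: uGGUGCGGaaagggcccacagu
mmu-miR-675-3p: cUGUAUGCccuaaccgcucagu
The seeds of these arms are different. The separate record Mir675 is listed at 0 in both libraries although the exon around it belongs to an abundant RNA, and the same holds for Mir483 in an intron of Igf2 and Mir335 in an intron of Mest. Libraries of this kind do not capture mature miRNAs, so these zeros carry no measure of them.

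The receptor of IGF2 was slightly higher. Igf2r (ENSMUSG00000023830, chromosome 17, 12682406 to 12769664, minus strand) encodes the mannose 6-phosphate receptor, which takes IGF2 to the lysosome for degradation. It was at 125 TPM in the control and 155 TPM in the knockdown library, 1.24-fold higher, a difference of 0.31. Its level was 1.08 times that of Igf2 with shRFP and 1.26 times with shETV4.

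Grb10, a signalling adaptor that binds the insulin and IGF1 receptors and dampens them, was lower. Grb10 (ENSMUSG00000020176, chromosome 11, 11930508 to 12038683, minus strand) was at 135 TPM in the control and 99.3 TPM in the knockdown library, 1.36-fold lower, a difference of -0.43. That lies inside the middle 50% of all measured genes, which ran from -0.48 to 0.21.

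The zinc finger transcription factor genes Plagl1 and Peg3 differed in how far they were from level. Plagl1 (ENSMUSG00000019817, chromosome 10, 13060504 to 13131694, plus strand), also known as Zac1, regulates other imprinted genes, Igf2 and H19 among them. It was at 39.0 TPM in the control and 35.3 TPM in the knockdown library, a difference of -0.14. Peg3 (ENSMUSG00000002265, chromosome 7, 6703892 to 6730431, minus strand) is a large zinc finger protein with roles in growth and maternal behaviour. It was at 56.2 TPM in the control and 32.4 TPM in the knockdown library, 1.73-fold lower, a difference of -0.78 that was above that of 12.6% of measured genes.

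Dlk1 and Mest, both paternally expressed, went in opposite directions. Dlk1 (ENSMUSG00000040856, chromosome 12, 109452823 to 109463336, plus strand) encodes a Notch-related membrane protein with EGF repeats that marks hepatoblasts in fetal liver. It was at 205 TPM in the control and 314 TPM in the knockdown library, 1.53-fold higher, a difference of 0.61. Mest (ENSMUSG00000051855, chromosome 6, 30723547 to 30748465, plus strand), also known as Peg1, encodes a hydrolase-like protein of the endoplasmic reticulum. It was at 110 TPM in the control and 63.9 TPM in the knockdown library, 1.71-fold lower, a difference of -0.77. Of the exonic bases of Mest, 23.1% lie in exons of Copg2 on the other strand, and the sources used here do not name a strand setting, so reads from these overlapping ends cannot be assigned with certainty.

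In order of level with shRFP the genes ran H19, Dlk1, Grb10, Igf2r, Igf2, Mest, Peg3, Plagl1, Snurf and Snrpn. With shETV4, Grb10 stood below Igf2r and Igf2, Peg3 below Plagl1 and Snurf below Snrpn, while H19 and Dlk1 stayed on top. With 1 library a group, no neighbours in this order can be said to differ. Among the 3 maternally expressed genes 2 had a difference above 0, and among the 7 paternally expressed genes 2 did (1 after GC adjustment, which took Igf2 below 0). The 7 count Snrpn and Snurf apart. Over all 12951 measured genes 5386 were above 0 (6469 after GC adjustment).

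**Figure D2:**
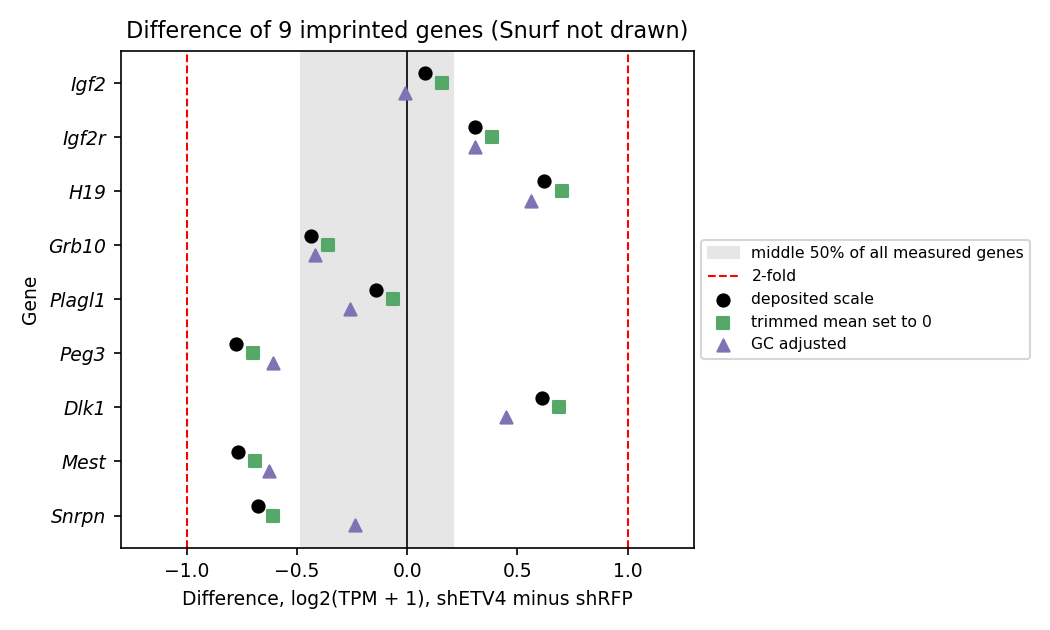
Difference of 9 of the genes (horizontal axis, log2 scale, shETV4 minus shRFP), as deposited, with the trimmed mean of log ratios set to 0 and after GC adjustment. The grey band is the middle 50% of all measured genes and the dashed lines are 2-fold. All 9 genes lie between the dashed lines on each scale, and Snurf, listed at 0 with shETV4, is not drawn.

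Base composition moved with the differences across the whole table, and its part in the values above was not tested. Across 12932 measured genes with a known transcript GC content, Spearman's rho between GC content and the difference was 0.52, a description of genes that share both libraries. The median difference was -0.74 in the tenth of genes with the lowest GC content and 0.17 in the tenth with the highest. Dlk1 was the richest in GC of the 10 genes, at 58.3%, and Snrpn the poorest, at 45.1%. With the median trend subtracted, Snrpn came to -0.23 from -0.68, the largest shift among the 10. Peg3 came to -0.61, Mest to -0.63, Dlk1 to 0.45 and H19 to 0.56, each with the same sign as before, and Snurf stayed past 2-fold. H19, Dlk1 and Snrpn then lay within 1.5-fold, while Peg3 and Mest stayed past it.

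**Figure D3:**
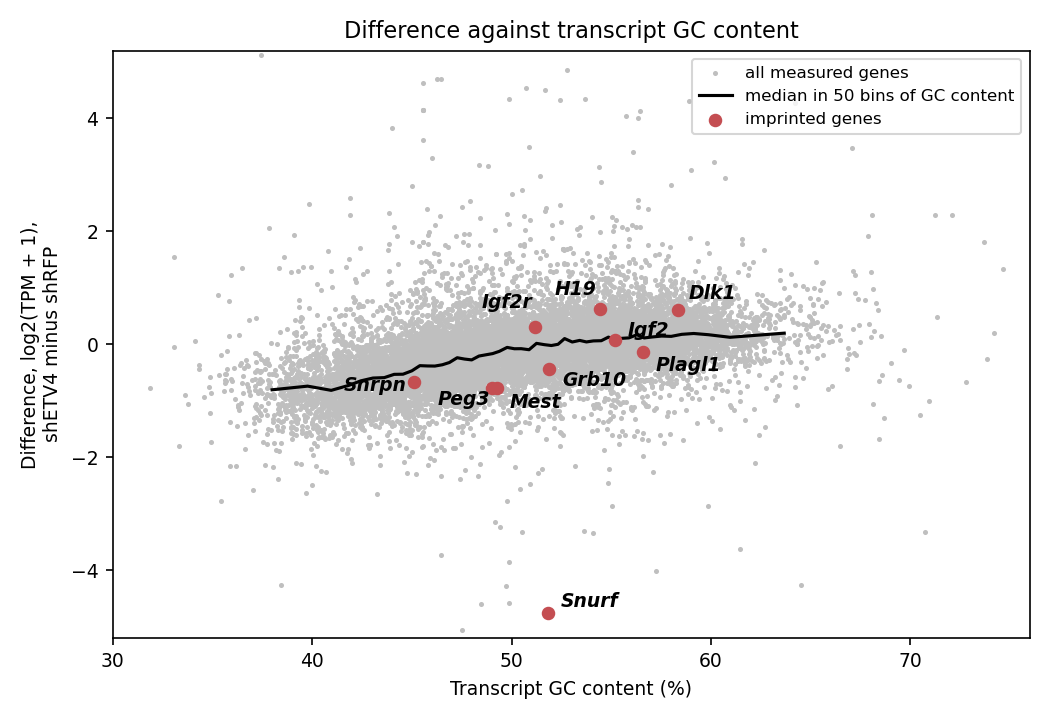
Difference (log2 scale, shETV4 minus shRFP) against transcript GC content in percent for all measured genes, with the median in 50 bins as a line and the 10 imprinted genes as large points. The median climbs with GC content, H19, Igf2r and Dlk1 lie above it and Peg3, Mest, Grb10, Plagl1 and Snrpn below it, Igf2 lies near it, and Snurf stands far below; 24 genes fall outside the vertical axis.

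Other imprinted genes, on any chromosome, were read from a list of 54, of which 53 symbols were in the tables and 33 were measured. None of the 33 was called higher, against 3.36% of all genes, and 2 were called lower, against 7.06%, with a median difference of -0.04 that turned to 0.03 with the median ratio set to 1. The 2 were Copg2, a coat protein gene at 22.0 and 5.57 TPM (-1.81), and Ube3a, a ubiquitin ligase gene at 9.75 and 3.52 TPM (-1.25). Copg2 overlaps the end of Mest by 912 bases on the opposite strand, and Ube3a lies 671 kb from Snrpn. Ube3a is poor in GC, at 39.6%, and was at -0.50 after GC adjustment, whereas Copg2 stayed past 2-fold at -1.43. Nnat, which encodes the membrane proteolipid neuronatin, was at 14.2 and 6.75 TPM, 2.10-fold lower as a ratio of TPM. On log2(TPM + 1) it was just inside 2-fold, at -0.97, and it was at -1.15 after GC adjustment.

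Within the imprinted domains, neighbours did not all differ the same way as the gene of the set. Beside Dlk1, the maternally expressed non-coding RNAs Meg3, Rian and Mirg were at 48.8, 73.3 and 8.94 TPM in the control. They were at 56.7, 71.3 and 15.6 TPM in the knockdown, with differences of 0.21, -0.04 and 0.74. After GC adjustment they were at 0.07, 0.56 and 0.70, beside 0.45 for Dlk1. Dio3 is listed at 0 in both libraries. Beside Peg3, Usp29, whose start lies 0.147 kb away on the opposite strand, was at 3.05 and 1.70 TPM, a difference of -0.58 that came to -0.05 after GC adjustment, where Peg3 was at -0.61, and Zim1 was at 3 and 3.63 TPM. Airn, the antisense RNA that silences the paternal copy of Igf2r, was at 6.01 and 2.77 TPM, a difference of -0.89 beside 0.31 for Igf2r. After GC adjustment Airn was at -0.55 and Igf2r at 0.31. Their bodies overlap by 28354 bases, but 0% of the exonic bases of Igf2r lie in exons of another gene.

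Near Grb10, Ddc, which encodes an amino acid decarboxylase, was at 5.12 and 2.18 TPM, a difference of -0.94. In the domain next to Igf2, the growth restrainer Cdkn1c, an inhibitor of cyclin-dependent kinases, was at 17.5 and 21.5 TPM and the placental growth gene Phlda2 at 5.07 and 4.92 TPM. Ins2, which lies 11.8 kb from Igf2, is listed at 0 in both libraries. Further from Snrpn, the paternally expressed genes Ndn, Mkrn3 and Peg12 were at 1.82, 1.44 and 5.62 TPM in the control and at 2.24, 1.42 and 5.28 TPM in the knockdown, all within 1.5-fold.

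**Figure D4:**
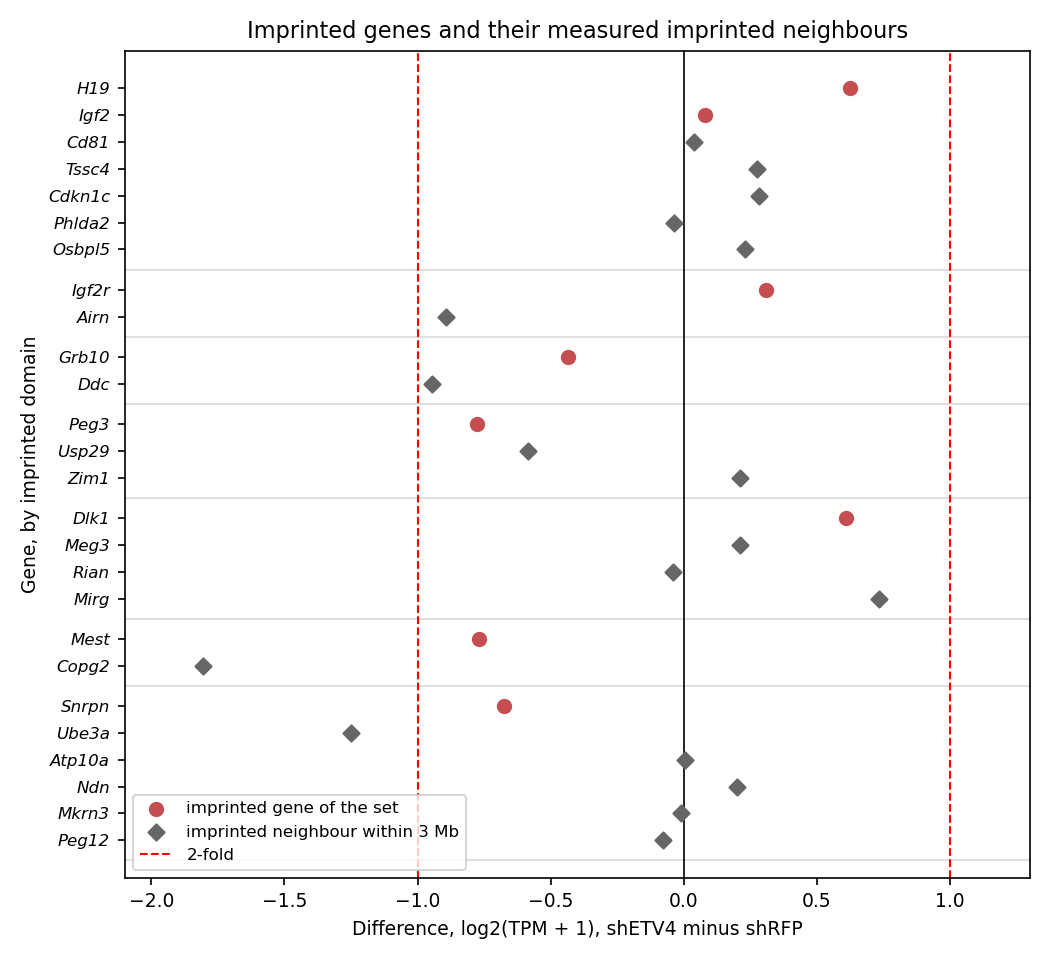
Difference (log2 scale, shETV4 minus shRFP) of the imprinted genes and of the measured imprinted genes within 3 Mb of them, grouped by domain, with dashed lines at 2-fold. Copg2 and Ube3a are the points past 2-fold, and in the Peg3 and Igf2r domains points lie at clear distances on both sides of 0. Plagl1, with no listed neighbour, and Snurf are not drawn.

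The rest of the imprinted list was split by the parental copy listed as expressed. Which copy was read in these cells was not measured. Of 18 measured genes listed as maternally expressed 12 had a difference above 0 and 6 below, with a median of 0.12. Of 15 measured genes listed as paternally expressed 3 were above 0 and 12 below, with a median of -0.39. Over all 12951 measured genes 5386 were above 0 and 7552 below, with a median of -0.10. The paternal group had a median GC content of 47.2% against 53.2% in the maternal group. After GC adjustment 8 of 18 maternal and 9 of 15 paternal genes were below 0, beside 6481 of all 12951. The medians of the maternal and paternal groups were then 0.05 and -0.05. Gnas, which encodes the stimulatory G protein, was the highest of the genes listed as maternally expressed, at 1144 and 1251 TPM. Of the genes listed as paternally expressed, Slc38a4, an amino acid transporter gene of liver and placenta, was the highest in the control at 129 TPM. It was at 69.6 TPM in the knockdown, a difference of -0.89. Peg10, a gene derived from a retrotransposon, was at 127 and 144 TPM.

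The IGF axis around Igf2, Igf2r and Grb10 was read from 48 further genes, of which 38 were measured, with a median difference of -0.09. No count of calls is given for this list, from which 1 gene is not reported here. Igf1, Ins1 and Ins2 were not measured in either library, which leaves Igf2 as the 1 measured ligand gene. The signalling receptor genes Igf1r and Insr were at 14.9 and 9.03 TPM in the control and at 12.1 and 8.48 TPM in the knockdown.

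Of 8 IGF-binding protein genes, whose products hold IGFs outside the cell, 6 were measured and 5 of the 6 had a difference above 0 (4 after GC adjustment). Igfbp4 and Igfbp7 were the highest, at 479 and 202 TPM in the control and at 519 and 256 TPM in the knockdown library. Igfbp6, which prefers IGF2, was at 63.8 and 101 TPM (0.66) and Igfbp3 at 5.08 and 9.41 TPM (0.78), while Igfbp5 was the gene below 0, at 11.2 and 6.57 TPM (-0.68). The 3 genes of the IGF2 mRNA-binding proteins, Igf2bp1, Igf2bp2 and Igf2bp3, were at 30.7, 80.0 and 34.1 TPM in the control and at 28.5, 65.0 and 29.5 TPM in the knockdown. Among 23 measured genes of downstream signalling 7 had a difference above 0 and 16 below, with a median of -0.19 (-0.06 after GC adjustment). Akt1 was the highest at 250 and 281 TPM, and the adaptor gene Shc1 was at 77.5 and 119 TPM (0.61). Further from level were Rictor (-0.88), Sos1 (-0.83) and Gab1 (-0.74). After GC adjustment these 3 were at -0.21, -0.24 and -0.72.

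Promoter windows were searched for letters bound by ETS factors, since Etv4 was the gene knocked down. RefSeq held 17 distinct windows for 9 of the 10 genes. The letters CCGGAAG, read on both strands, were in 0 of the 17 windows and in 8.86% of 32817 windows of all genes. The letters AGGAAG, which share GGAA with the first motif, were in 6 of 17 windows (35.3%), 1 for each of 6 genes, and in 35.4% of all windows. The window of Peg3, chr7:6730370-6730669 on the minus strand, is shown as the one among the 6 whose gene was furthest below level, with AGGAAG in capitals at position 193 from its 5′ end.
Peg3 promoter: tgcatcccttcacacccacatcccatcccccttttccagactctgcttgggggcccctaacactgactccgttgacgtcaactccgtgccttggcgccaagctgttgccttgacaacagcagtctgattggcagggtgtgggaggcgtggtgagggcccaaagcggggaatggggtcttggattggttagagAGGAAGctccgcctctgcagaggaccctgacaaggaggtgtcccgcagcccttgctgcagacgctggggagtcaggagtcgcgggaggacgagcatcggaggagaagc
A match describes these letters only. The shares of AGGAAG in the imprinted genes and in all windows were nearly equal, and binding was not measured.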

How the data were processed

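RNA-seq of 2 libraries, 1 per group, was used, with groups taken from the treatment labels. The authors deposited TPM, with 1 value for each gene and library; headers name no unit, which was read from the column totals. The submitters' processing notes list HISAT2, RSEM and GRCm38.p4 with neither role nor version, and the sources used here do not give the annotation release, strand setting or filters. TPM keeps no depth, so no interval or floor is given.

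Of 55640 records, 153 without a symbol (1.13% of TPM with shRFP, 2.67% with shETV4) were left out, and each symbol was read from its row of highest summed TPM. GENCODE M21 (GRCm38) gave positions, exon overlap and GC content (median over transcripts) for 99.5% of symbols. Differences used a pseudocount of 1, a filter of 1 TPM in at least 1 library and a 2-fold call. Alternatives changed the pseudocount, filter, threshold, scale (median ratio, or trimmed mean of log ratios, over genes with 5 TPM in each library), row rule and GC trend (median of 50 bins subtracted). The calculations were tested on simulated data. The members, gene lists and naming rule (all 10 genes, Etv4, and from each list its called genes and, though not all are printed, its highest) were chosen with earlier results of these data known; other genes were named after their values were seen. After that, 1 gene was taken off the IGF axis list and its counts, and is not reported here. Python 3.11.15, numpy 2.4.6, pandas 2.3.3 and matplotlib 3.10.9 were used.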

Additional observations from a re-analysis of the deposited data

How the results depend on the processing

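Snurf was called lower under each of the 10 alternatives to the call rule. No other of the 10 genes was called except at the 1.5-fold threshold, where 2 were higher and 4 lower without GC adjustment. The signs of the 10 genes held under every scale, pseudocount and GC setting run, except that of Igf2 (-0.01 after GC adjustment). The median ratio lay at -0.07 and the trimmed mean at -0.08 on the log2 scale, and dividing either out moved no gene of the 10 past 2-fold.
Of the 33 measured other imprinted genes, none was higher and 2 were lower on the main settings, beside 3.36% and 7.06% of all measured genes. Lower genes numbered 5 with pseudocount 0.1, 1 with pseudocount 5 and 1 at 3-fold. Over all 12951 measured genes the counts were 1454, 266 and 161. At 1.5-fold 8 were lower and 1 higher (Mirg), beside 20% and 8.59% of all measured genes. Copg2 was called lower at each of these settings. With GC adjustment the count of lower genes stayed at 2, with Nnat in place of Ube3a, beside 301 of 12951 over all genes.
Among the 38 measured IGF axis genes reported, Rictor was past 2-fold lower with pseudocount 0.1. Stc1, at 1.27 and 2.01 TPM, was past 2-fold higher with GC adjustment. At 1.5-fold Igfbp5, Gab1, Sos1 and Rictor were lower and Igfbp3, Igfbp6 and Shc1 higher, beside 20% and 8.59% of all measured genes. These names give no count of calls for the list, from which 1 gene is not reported here.
Over all genes, 435 were higher and 914 lower. The counts were 670 and 1454 with pseudocount 0.1, 165 and 266 with pseudocount 5, 1113 and 2585 at 1.5-fold, and 160 and 161 at 3-fold. With a 5 TPM filter 250 were higher. With GC adjustment 521 were higher and 301 lower, so that 63.4% of called genes were higher in place of 32.2%. Depth is unknown, and with 1 library a group no replicate could be left out. No paired analysis was possible because each group has 1 library and no result comes from a test.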

Other observations

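Genes tied to imprints and to DNA methylation were read from a list of 18, which also holds the Dnmt3 and Tet genes. Of these 18, 14 were measured, 0 were called higher and 2 lower, beside 3.36% and 7.06% of all measured genes. Their median difference was -0.21. Zfp57, the zinc finger protein that binds methylated imprinting control regions, was at 30.8 TPM in the control and 25.4 TPM in the knockdown library, and its partner Trim28 at 390 and 372 TPM. The maintenance methyltransferase gene Dnmt1 was at 133 and 127 TPM and its cofactor Uhrf1 at 139 and 147 TPM. Ctcf, which insulates Igf2 from its enhancers on the maternal copy, was at 50.6 and 33.4 TPM, a difference of -0.59. The 2 called genes were Smchd1, a chromatin protein that acts on the inactive X and on imprinted clusters, at 25.9 and 9.20 TPM, and Arid4b at 4.89 and 1.90 TPM. Both are poor in GC, at 42.3% and 41.9%, and were at -0.73 and -0.31 after GC adjustment.

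The other genes of the Sm ring, to which the product of Snrpn belongs, were 7 of 7 measured and within 2-fold, with a median of -0.06 that turned to 0.01 with the median ratio set to 1. Snrpb was at 512 and 520 TPM, far above Snrpn in both libraries, and Snrpd1 was the furthest from level at 262 and 157 TPM. The difference of Snrpd1 was -0.74, and -0.14 after GC adjustment, where Snrpf was the furthest at 0.61. Of the Notch pathway genes listed with Dlk1, Hes1 and Hey1 among them, 8 of 11 were measured and 1 was called lower, beside 7.06% of all measured genes. It was Dlk2, the close relative of Dlk1, at 6.27 and 2.63 TPM, just past 2-fold as deposited, inside 2-fold with the median ratio or the trimmed mean divided out, and at -1.14 after GC adjustment. Notch2 was the highest of them at 37.7 and 41.2 TPM. Plag1 and Plagl2, the relatives of Plagl1, were at 1.99 and 15.8 TPM in the control and at 3.09 and 20.6 TPM in the knockdown.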
